A study of Rattus norvegicus with 2 samples.

Results

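The genes described here are the enzymes and regulators of sterol synthesis, fatty acid synthesis and fatty acid oxidation. They were chosen by name, as 36 genes: 13 enzymes and 2 regulators of sterol synthesis, 6 genes of fatty acid synthesis, 3 acyl-CoA synthetases and 12 genes of beta-oxidation. A probe set with a single annotated gene was found for 35 of the 36, out of 10411 genes on the array. The expression of Hmgcs1 was not analysed here. Where a gene had several probe sets, its brightest was used. The 35 genes had 50 probe sets in all.

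Expression was profiled in A7r5, an established smooth muscle cell line from embryonic rat aorta. The pool called GLUT1 here came from cells infected for 72 hours with an adenovirus that carried the human cDNA of the glucose transporter GLUT1. The comparison pool, called empty virus, came from cells infected with the vector alone. The groups were taken from the sample titles, since the description field names GLUT1 for both samples, and no value used here checks that assignment. Both pools were infected at a multiplicity of 10, where 1 unit stood for 100 particles per cell, and both were kept in 5.5 mM glucose. Each pool joined RNA isolated on 3 days and was read on 1 array, so there were 2 arrays and no replicates. No p-value or standard error can be given for any difference below, and precision is limited by the number of arrays. The cells are a single line, and which promoter drove the transgene is not stated in the labels. Each pool is bulk RNA, in which fewer cells of a type and less RNA per cell cannot be told apart.

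Cholesterol is built from acetyl-CoA through mevalonate, isoprenoid diphosphates, squalene and lanosterol. The SREBP transcription factors raise the enzymes of this route when membrane sterol is low, and INSIG proteins hold SREBP back when it is high. Fatty acids are built from the same acetyl-CoA, which ATP citrate lyase releases from citrate that glucose carbon can supply. Beta-oxidation runs in the mitochondrion, where carnitine palmitoyltransferases admit the acyl chain and a cycle of 4 reactions removes acetyl-CoA units from it. Textbook regulation sets synthesis and oxidation against each other, because malonyl-CoA, the product of acetyl-CoA carboxylase, blocks carnitine palmitoyltransferase.

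The deposited values were linear intensities in whole numbers, with a median of 508 and quartiles of 175 and 1507.5 on both arrays, so a change in total mRNA cannot be seen in them. Genes were taken as measured if the log2 intensity averaged over both arrays was at or above the array-wide median, which stood at 507 in linear units. This held for 33 of the 35 genes and for 6114 of all 10411. Cpt2 and Acadvl lay below it. Smooth muscle markers were measured for 4 of the 6 on the array, led by Acta2 at 16687 in GLUT1 and 16303 in empty virus, while Myh11 was at 228 and 227. Their summed intensity was 29899 in GLUT1 and 28809 in empty virus. No marker of adipocytes (3 on the array), hepatocytes (6), leukocytes (5) or endothelial cells (3) was measured, and the highest of these was 464 in GLUT1 and 470 in empty virus. The rat probe set of Slc2a1, the GLUT1 gene, read 3121 in GLUT1 and 2902 in empty virus, a log2 ratio of 0.11. Whether it can bind the human cDNA is not known here.

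Promoter sequences were set beside the genes because SREBP acts together with factors that bind a CCAAT box and a GC box. The RefSeq promoter table (GRCr8) held 29 of the 36 genes, and Pmvk, Fdft1, Sqle, Acaca, Fasn, Elovl6 and Acadl had no entry. The sequences below are the 250 bases before the start site of the measured gene farthest from a log2 ratio of 0 in each of 3 roles, among genes with an entry. Capitals mark CCAAT or its reverse complement ATTGG, and GGGCGG. These matches did not overlap.
Ebp, sterol synthesis, chrX:16971212-16971461, plus strand: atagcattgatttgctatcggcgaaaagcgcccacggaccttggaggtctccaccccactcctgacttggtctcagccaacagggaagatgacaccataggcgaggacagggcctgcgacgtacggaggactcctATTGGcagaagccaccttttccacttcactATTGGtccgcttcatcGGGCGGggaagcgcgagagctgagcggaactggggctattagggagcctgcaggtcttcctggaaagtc
Scd2, fatty acid synthesis, chr1:253118127-253118376, plus strand: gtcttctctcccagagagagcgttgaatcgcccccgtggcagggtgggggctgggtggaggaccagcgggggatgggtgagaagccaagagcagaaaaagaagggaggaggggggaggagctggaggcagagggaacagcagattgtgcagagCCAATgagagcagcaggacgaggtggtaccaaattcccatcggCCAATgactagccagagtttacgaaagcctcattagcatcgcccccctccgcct
Eci1, beta-oxidation, chr10:13961000-13961249, plus strand: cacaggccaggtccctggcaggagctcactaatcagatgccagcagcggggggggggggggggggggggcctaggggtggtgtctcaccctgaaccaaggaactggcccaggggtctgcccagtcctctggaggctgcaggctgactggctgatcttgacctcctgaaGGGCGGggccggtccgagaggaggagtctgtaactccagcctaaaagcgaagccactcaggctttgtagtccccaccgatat
The Ebp window held ATTGG at 115 and 85 bases and GGGCGG at 69 bases before the start site. Scd2 held CCAAT at 97 and 54 bases, and Eci1 held GGGCGG at 82 bases. With both strands searched in the same window, CCAAT was present in 8 of 10 sterol synthesis promoters, both regulators, 2 of 3 fatty acid synthesis promoters, 2 of 3 acyl-CoA synthetase promoters and 2 of 11 beta-oxidation promoters, beside 34.3% of 27457 promoters. GGGCGG was present in 9 of 10 sterol synthesis promoters, both regulators, 1 of 3 fatty acid synthesis promoters, 2 of 3 acyl-CoA synthetase promoters and 7 of 11 beta-oxidation promoters, beside 32.4% of all. CACGTG, the E-box core that is also part of the carbohydrate response element, was found in Sc5d and Insig1 alone among the 29 genes, 6.9% of them beside 5.79% of all promoters. TCACCCCAC, a core of the sterol regulatory element, was in none of the 29 and in 0.419% of all. A match or its absence describes these letters in this window only.

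No gene of the set differed by 2-fold between GLUT1 and empty virus, and the programme as a whole lay close to 0. Of the 33 measured genes, 0 passed 2-fold, beside 0.0164% of all measured genes (1 of 6114). Above 0 were 18 of the 33, where 52.2% of all measured genes were above 0, and below 0 were 15, where 47.8% of all were. The median log2 ratio, GLUT1 over empty virus, was 0.026 for the 33 genes and 0.006 for all measured genes, and the SDs across genes were 0.13 and 0.14. Within 0.1 of 0 lay 60.6% of the lipid genes and 58.5% of all genes.

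Split by role, the medians also stayed near 0. For the 12 measured genes of sterol synthesis the median log2 ratio was 0.002, with 6 above and 6 below 0. For the 6 of fatty acid synthesis it was 0.07, with 4 above and 2 below. The 3 acyl-CoA synthetases had a median of -0.06, with all 3 below. For the 10 measured genes of beta-oxidation it was 0.06, with 7 above and 3 below. The ranges overlapped widely, from -0.15 to 0.33 for sterol synthesis, -0.16 to 0.13 for fatty acid synthesis, -0.12 to -0.03 for the synthetases and -0.17 to 0.28 for beta-oxidation. Synthesis and oxidation thus gave no opposed pattern in these medians. The block by malonyl-CoA acts on the enzyme itself, which mRNA intensities do not show. The differences between roles were not tested, since the genes of a role are not replicates of a condition.

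**Figure D1:**
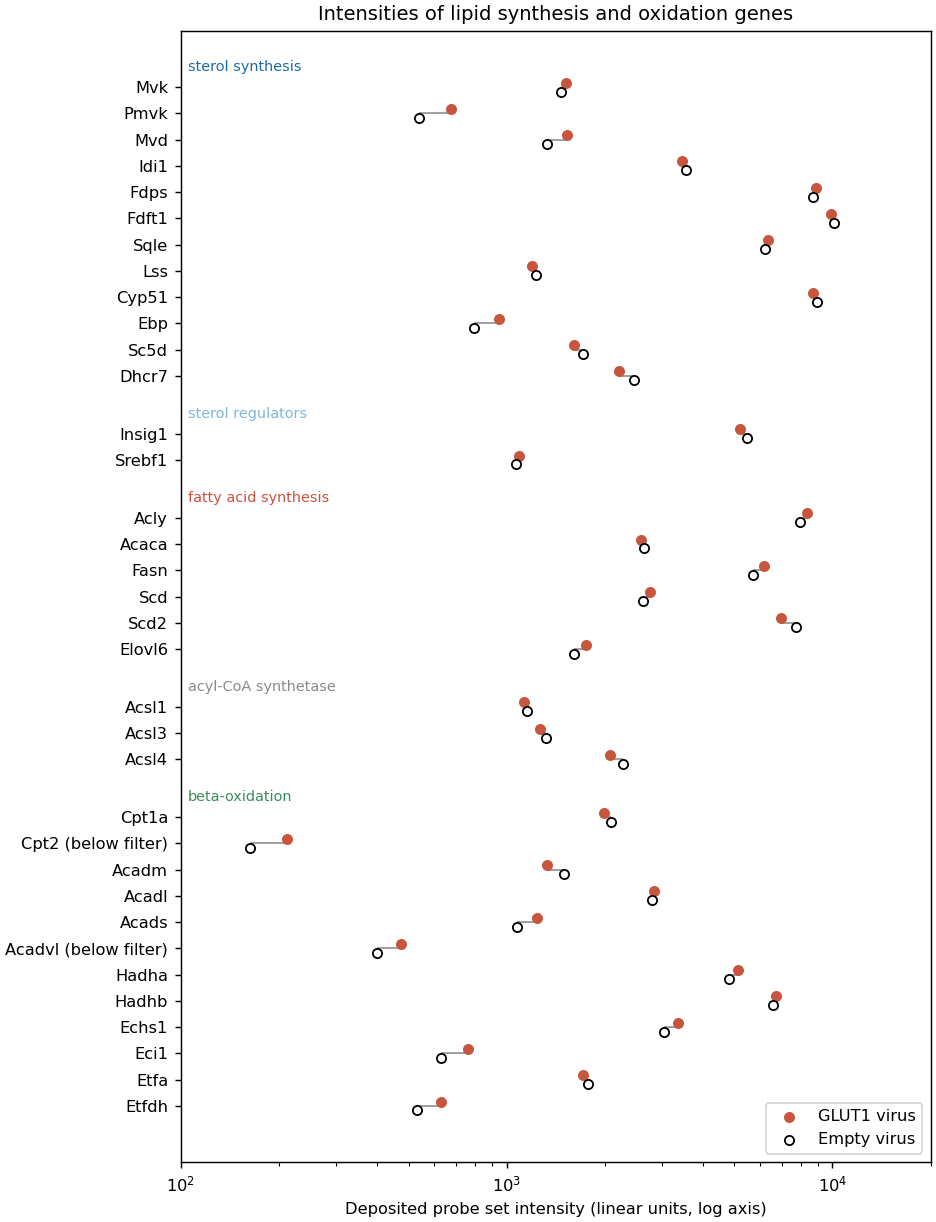
Deposited intensity of each of the 35 genes on a log axis, grouped by role, with filled points for the GLUT1 array and open points for the empty virus array. The 2 points of most genes lie close together, and the wider gaps belong to dim genes such as Pmvk (675 in GLUT1, 538 in empty virus) and Etfdh (629 in GLUT1, 529 in empty virus).

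The first steps of the sterol route turn mevalonate into isoprenoid units. Mvk, the mevalonate kinase, read 1520 in GLUT1 and 1470 in empty virus, a log2 ratio of 0.05. Pmvk, which adds the next phosphate, read 675 in GLUT1 and 538 in empty virus, a ratio of 1.26-fold and 0.33 on the log2 scale. Mvd, the decarboxylase that follows, read 1534 in GLUT1 and 1328 in empty virus, a log2 ratio of 0.21. These 3 consecutive enzymes were all higher in GLUT1, where 52.2% of all measured genes were above 0. The grouping was made after their values were seen. Idi1, the isomerase of the isoprenoid unit, read 3455 in GLUT1 and 3556 in empty virus (log2 ratio -0.04). Fdps, the farnesyl diphosphate synthase, read 8876 in GLUT1 and 8723 in empty virus (0.03).

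By the brightest probe set of each gene, Pmvk stood farthest from 0 of the whole set. Second probe sets of Sc5d (0.35) and Idi1 (-0.33) lay about as far out. To judge such a value without replicates, each log2 ratio was set against its local spread, a robust SD (scaled median absolute deviation) over its neighbours in brightness, 250 measured probe sets on either side. Pmvk lay 1.90 local spreads above the local median, where the local spread was 0.17. Of all measured genes, 3.04% lay at least as far from 0 as Pmvk in either direction. It maps to chromosome 2, bases 177174344 to 177184076 (GRCr8), and was read by a single probe set.

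From squalene onward the enzymes lay on both sides of 0. Fdft1, the squalene synthase, read 9929 in GLUT1 and 10099 in empty virus (log2 ratio -0.02). Sqle, the squalene epoxidase and a rate-controlling step, read 6319 in GLUT1 and 6194 in empty virus (0.03). Lss, which closes squalene epoxide into lanosterol, read 1194 in GLUT1 and 1227 in empty virus (-0.04). Cyp51, the lanosterol demethylase, read 8683 in GLUT1 and 8991 in empty virus (-0.05). By their brightest probe sets all 4 lay within 1 local spread of the local median, with Cyp51 the farthest out at -0.52 spreads. The second probe set of Cyp51 read 3914 in GLUT1 and 3661 in empty virus, a log2 ratio of 0.10 and 1.04 local spreads. Second probe sets of Fdft1 (-0.85 spreads) and Lss (-0.20) stayed within 1 spread. The brightest probe set of Cyp51 carries the suffix _s_at, a type that can be shared by several transcripts.

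The late sterol enzymes spread more widely. Ebp, the sterol isomerase, read 945 in GLUT1 and 792 in empty virus, a log2 ratio of 0.26 and 1.59 local spreads. Sc5d, the sterol desaturase that acts after it, read 1612 in GLUT1 and 1721 in empty virus (-0.09). Dhcr7, the reductase that completes cholesterol, read 2209 in GLUT1 and 2461 in empty virus, a log2 ratio of -0.15 and -1.54 local spreads. The isomerase and the reductase thus lay on opposite sides of 0, each by more than 1 local spread. A local spread covers array noise and real differences together, and 31.4% of all measured genes lay at least 1 local spread out.

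The sterol regulators differed little. Insig1, the protein that retains SREBP in the endoplasmic reticulum and itself an SREBP target, read 5219 in GLUT1 and 5455 in empty virus (log2 ratio -0.06). Srebf1, which encodes SREBP-1, read 1091 in GLUT1 and 1069 in empty virus (0.03), and its second probe set gave -0.05. Srebf2, which encodes the SREBP most tied to cholesterol synthesis, read 3025 in GLUT1 and 2884 in empty virus (0.07). Scap, the escort of SREBP, read 1180 in GLUT1 and 1049 in empty virus (0.17), and Nr1h2, the oxysterol receptor LXR-beta, 2298 in GLUT1 and 2525 in empty virus (-0.14). These last 2 were the measured genes farthest from 0 in a list of 15 genes of sterol regulation and uptake, of which 8 were measured, with a median of -0.03, 3 above and 5 below 0 and 0 at 2-fold.

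Other sterol enzymes outside the 36 genes gave a like picture. Of 11 listed, 6 were measured, with a median log2 ratio of 0.01, 3 above and 3 below 0 and 0 at 2-fold. Msmo1, the sterol methyl oxidase, read 8277 in GLUT1 and 8006 in empty virus (0.05). Hsd17b7, a sterol ketoreductase, read 885 in GLUT1 and 841 in empty virus (0.08), and Nsdhl, which acts beside it, was below the filter at 327 in GLUT1 and 300 in empty virus. Farthest from 0 were Dhdds, a subunit of the enzyme that makes dolichol precursors from farnesyl diphosphate, at 816 in GLUT1 and 658 in empty virus (0.31), and Lbr, the lamin B receptor with sterol reductase activity, at 1181 in GLUT1 and 1367 in empty virus (-0.21). Nus1, the partner subunit of Dhdds, read 670 in GLUT1 and 759 in empty virus (-0.18), so the 2 subunits did not share a direction. Nus1 was named after its value was seen.

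**Figure D2:**
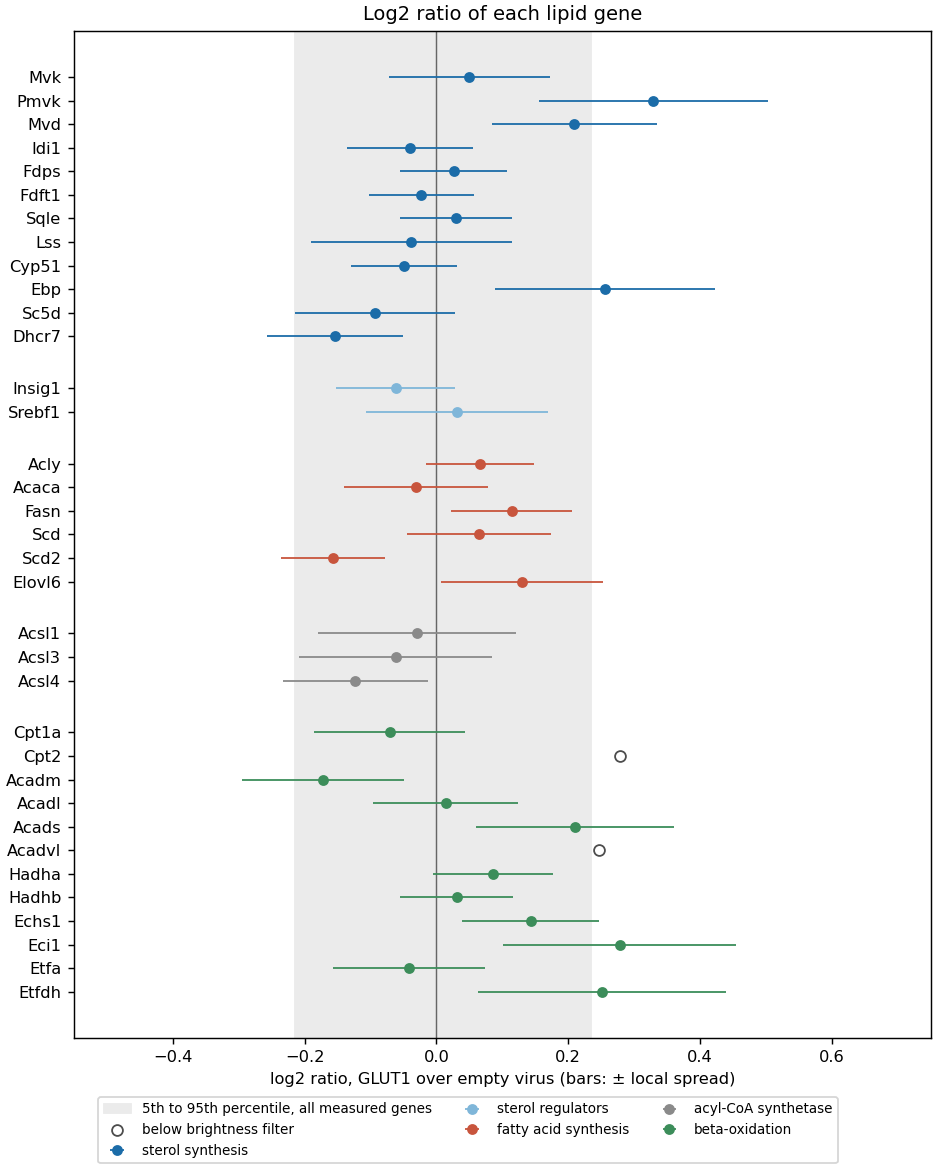
Log2 ratio, GLUT1 over empty virus, of each of the 35 genes by role, with bars of 1 local spread either way and a grey band from the 5th to the 95th percentile of all measured genes (-0.21 to 0.24). Pmvk at 0.33, Eci1 at 0.28, Ebp at 0.26 and Etfdh at 0.25 are the measured genes outside the band, and open points mark Cpt2 and Acadvl, which lay below the brightness filter.

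In fatty acid synthesis the genes that lead from citrate to palmitate differed by small amounts. Acly, the ATP citrate lyase, read 8341 in GLUT1 and 7976 in empty virus (log2 ratio 0.07). Acaca, the acetyl-CoA carboxylase of lipogenic tissue, read 2578 in GLUT1 and 2637 in empty virus (-0.03). Fasn, the fatty acid synthase, read 6160 in GLUT1 and 5696 in empty virus, a log2 ratio of 0.11 and 1.25 local spreads. Elovl6, which lengthens palmitate, read 1754 in GLUT1 and 1604 in empty virus, a log2 ratio of 0.13 and 1.05 local spreads. The second probe set of Fasn gave -0.09, at 1012 in GLUT1 and 1081 in empty virus, so the direction of Fasn differed between its probe sets.

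The stearoyl-CoA desaturases, which make monounsaturated fatty acids, had log2 ratios on opposite sides of 0. Scd2 read 6944 in GLUT1 and 7751 in empty virus, a log2 ratio of -0.16. At -2.01 local spreads it was the only one of the 33 measured genes at 2 local spreads or more, where 5.58% of all measured genes were that far out. A second measured probe set of Scd2 read 1830 in GLUT1 and 2220 in empty virus, a log2 ratio of -0.28 and -2.48 local spreads. Both measured probe sets were thus lower in GLUT1, and the dimmest was level at 248 in GLUT1 and 247 in empty virus. Scd, read by a single probe set, was at 2745 in GLUT1 and 2626 in empty virus (0.07). The 2 genes lie on chromosome 1 with 87531 bases and 1 other annotated gene between them (GRCr8). They are close paralogs, and whether a probe set of either binds the transcript of the other was not tested.

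Genes beside this route were also near 0. Of 16 listed, 12 were measured, with a median log2 ratio of -0.01, 4 above and 8 below 0 and 0 at 2-fold. Farthest from 0 were Prkaa1, a catalytic subunit of AMP-activated kinase, which inactivates acetyl-CoA carboxylase by phosphorylation, at 870 in GLUT1 and 1022 in empty virus (-0.23), and Fads1, a desaturase of polyunsaturated fatty acids, at 6576 in GLUT1 and 6091 in empty virus (0.11). Acss2, which makes cytosolic acetyl-CoA from acetate, read 3150 in GLUT1 and 2937 in empty virus (0.10). Acacb, the carboxylase isoform of muscle mitochondria, was below the filter at 180 in GLUT1 and 237 in empty virus.

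Acyl-CoA synthetases activate long-chain fatty acids for either fate. Acsl1 read 1133 in GLUT1 and 1157 in empty virus (log2 ratio -0.03). Acsl3 read 1262 in GLUT1 and 1319 in empty virus (-0.06). Acsl4, which prefers arachidonate, read 2083 in GLUT1 and 2271 in empty virus, a log2 ratio of -0.12 and -1.12 local spreads. All 3 were lower in GLUT1, where 47.8% of all measured genes were below 0. Each differed by less than the SD of a single log2 ratio estimated from probe set pairs (0.135, described below). A second, dim probe set of Acsl1 went the other way, at 486 in GLUT1 and 301 in empty virus.

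Entry into beta-oxidation showed no shared direction. Cpt1a, the outer carnitine palmitoyltransferase that malonyl-CoA inhibits, read 1995 in GLUT1 and 2097 in empty virus (log2 ratio -0.07), and its second probe set read 1256 in GLUT1 and 1194 in empty virus (0.07). Cpt2, the inner enzyme, was below the brightness filter at 212 in GLUT1 and 163 in empty virus, on both sides of the floor of 175 below which intensities were set to it, so its plotted ratio depends on that floor. Slc25a20, the carnitine carrier between them, read 1050 in GLUT1 and 1027 in empty virus (0.03). Cpt1b, the muscle isoform, was dim at 314 in GLUT1 and 262 in empty virus.

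The acyl-CoA dehydrogenases start each turn of the cycle and differ in the chain length they accept. Acadl, for long chains, read 2825 in GLUT1 and 2801 in empty virus (log2 ratio 0.01). Acadm, for medium chains, read 1332 in GLUT1 and 1502 in empty virus, a log2 ratio of -0.17 and -1.43 local spreads, the lowest log2 ratio of the 33 genes. Acads, for short chains, read 1243 in GLUT1 and 1076 in empty virus, a log2 ratio of 0.21 and 1.39 local spreads. The medium-chain and short-chain enzymes thus lay on opposite sides of 0. Acadvl, for very long chains, was below the filter at 475 in GLUT1 and 401 in empty virus. Each of these genes was read by 1 probe set.

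The 4 remaining enzyme genes of the set that act in the cycle were all above 0. This grouping was not set beforehand, and 52.2% of all measured genes were above 0. Hadha and Hadhb encode the subunits of the trifunctional protein, and their annotated ends lie 243 bases apart on chromosome 6 (GRCr8). Hadha read 5112 in GLUT1 and 4822 in empty virus (log2 ratio 0.09), and Hadhb 6702 in GLUT1 and 6566 in empty virus (0.03). Echs1, the enoyl-CoA hydratase, read 3363 in GLUT1 and 3049 in empty virus, a log2 ratio of 0.14 and 1.35 local spreads. Eci1, the isomerase needed for unsaturated chains, read 763 in GLUT1 and 630 in empty virus, a log2 ratio of 0.28 and 1.59 local spreads. Of all measured genes, 5.59% lay at least as far from 0 as Eci1. Its probe set carries the suffix _s_at, a type that can be shared by several transcripts, and its second probe set was at the floor on both arrays.

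Electrons from the dehydrogenases pass through the electron transfer flavoprotein to ubiquinone. Etfa, one of its subunits, read 1720 in GLUT1 and 1773 in empty virus (log2 ratio -0.04). Etfdh, the oxidoreductase that hands the electrons on, read 629 in GLUT1 and 529 in empty virus, a log2 ratio of 0.25 and 1.37 local spreads. Etfb, the partner subunit of Etfa, read 2603 in GLUT1 and 2248 in empty virus, a log2 ratio of 0.21 and 2.06 local spreads. Of the flavoprotein subunits, Etfa thus lay near 0, at -0.38 local spreads, and Etfb lay farther out. At 2 local spreads or more lay 5.58% of all measured genes.

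Of 21 further oxidation genes, 10 were measured, with a median log2 ratio of -0.004, 5 above and 5 below 0 and 0 at 2-fold. Etfb and Fabp3, the fatty acid binding protein of muscle at 657 in GLUT1 and 786 in empty virus (-0.26), were farthest from 0. Hadh, the short-chain hydroxyacyl-CoA dehydrogenase, read 1576 in GLUT1 and 1740 in empty virus (-0.14). Acaa2, a thiolase of the mitochondrion, was below the filter at 478 in GLUT1 and 441 in empty virus. Ppara, the fatty acid receptor that raises oxidation genes in liver, was at 63 in GLUT1 and 90 in empty virus, below the floor, while Ppard, its relative, read 1406 in GLUT1 and 1359 in empty virus (0.05).

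At a smaller threshold of 1.2-fold, a log2 ratio of 0.263, 2 of the 33 genes were higher in GLUT1, Pmvk and Eci1, beside 3.7% of all measured genes. None of the 33 was lower by 1.2-fold, beside 2.72% of all, and 6.41% of all genes passed 1.2-fold either way. These counts used the brightest probe set of each gene. Second measured probe sets passed 1.2-fold for Idi1 (-0.33) and Scd2 (-0.28), both lower in GLUT1, and for Sc5d (0.35), higher in GLUT1. At 1 local spread or more lay 13 of the 33, beside 31.4% of all measured genes.

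Brightness moved with the ratios of the genes farthest above 0. The 4 measured genes with a mean intensity between 507 and 1024, namely Ebp, Eci1, Etfdh and Pmvk, had log2 ratios from 0.25 to 0.33. Of all 1799 genes in this range, 14.1% had a log2 ratio of 0.2 or more, 10.6% had -0.2 or less, and the SD was 0.18. In the next range, from 1024 to 2048, 12 genes of the set had ratios from -0.17 to 0.21, with 5 above 0, and the SD of all 1878 genes there was 0.14. The 10 genes above 4096 lay between -0.16 and 0.11, where all 1055 genes had an SD of 0.09. These ranges were chosen after the values were seen, and the part of brightness in the higher ratios was not tested.

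**Figure D3:**
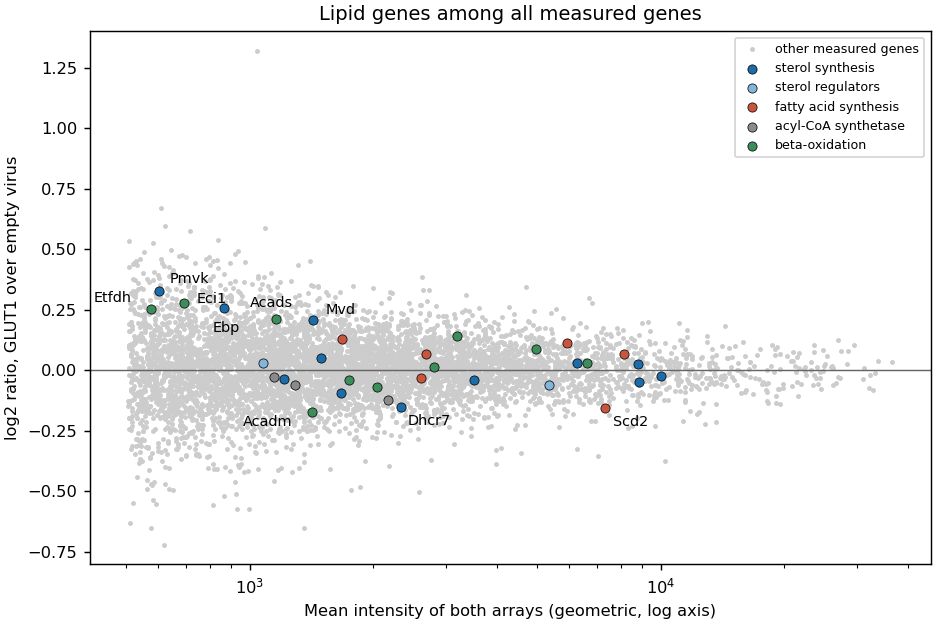
Log2 ratio, GLUT1 over empty virus, against the geometric mean intensity of both arrays on a log axis, with all 6114 measured genes in grey and the 33 lipid genes coloured by role. The grey cloud narrows with brightness, and the 4 dimmest lipid genes, from Etfdh at 0.25 to Pmvk at 0.33, lie in its upper part.

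Genes with a second measured probe set gave a reading from other probes on the same arrays. Of 10 such genes in the set, 5 had both probe sets on the same side of 0 (Fdft1, Idi1, Lss, Mvk and Scd2), and 50.9% of 702 such genes on the whole array did. Cpt1a, Cyp51, Fasn, Sc5d and Srebf1 had opposite signs. Sc5d differed most, at -0.09 for its brightest probe set and 0.35 for the second, which read 634 in GLUT1 and 499 in empty virus. Idi1 gave -0.04 and -0.33, the second at 922 in GLUT1 and 1159 in empty virus. Mvk gave 0.05 and 0.21, the second at 778 in GLUT1 and 674 in empty virus. The SD of a single log2 ratio was estimated from the difference between paired probe sets (its SD over the square root of 2). It was 0.15 for the 10 genes and 0.135 for all 702. Paired probe sets share the same 2 arrays, so error common to a pool or array is not in this SD. It also takes dim and bright probe sets together. Of the 33 genes, Pmvk, Eci1, Ebp, Etfdh, Acads, Mvd, Acadm, Scd2, Dhcr7 and Echs1 lay beyond 0.135 from 0. Of these, Scd2 alone had a second measured probe set. About 28.2% of all measured genes lay at least as far from 0 as 0.135.

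**Figure D4:**
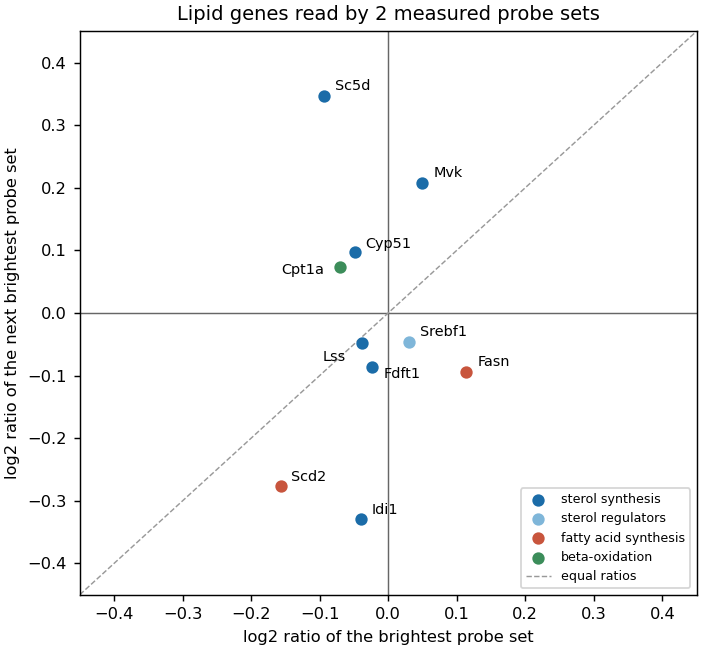
Log2 ratio of the brightest probe set (x axis) against that of the next brightest measured probe set (y axis) for the 10 lipid genes that have both, coloured by role, with a dashed line of equal ratios. Scd2, at -0.16 and -0.28, lies with both probe sets below 0, while Sc5d, at -0.09 and 0.35, lies farthest from the line.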

How the data were processed

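RNA of 2 pools, GLUT1 and empty virus, was read on 1 array each. The authors deposited linear intensity values per probe set, as whole numbers already equalised between arrays, with software, background correction and normalization not given in the sources. Of 15923 probe sets, 57 are controls, 12783 list a single gene, 312 several and 2771 none in the platform annotation. Symbols were updated through the gene ID (GRCr8), and only single-gene probe sets were used. GLUT1 values were multiplied to bring the median log2 ratio of the brighter probe sets to 0 (a change of 0.00138 log2 units), intensities below the 25th percentile (175) were set to it, and log2 was taken. Printed intensities are the deposited ones. The brightest probe set stood for a gene, and genes at or above the median brightness counted as measured. No test was possible with 1 array per group. The genes named were all 36 of the set, the 2 measured genes farthest from 0 of each neighbouring list, the genes of missing steps, and Slc2a1. Others were named after their values were seen, among them Srebf2, Ppara, Ppard and the marker genes. Genes and lists were chosen with earlier results of these data known. The steps were tested on simulated data. Python 3.11.15, numpy 2.4.6 and pandas 2.3.3 were used. Alternatives were other scaling, floors, filters, thresholds and averaged probe sets.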

Additional observations from a re-analysis of the deposited data

Results flagged for a closer look

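A dimmer probe set of Acsl1, which was not used as the value of its gene, read 486 in GLUT1 and 301 in empty virus, 0.69 on the log2 scale. This reading is given because a signal outside the gene comparisons exceeded the empty virus array, by 1.5-fold or more. It was the only one of 15 dimmer probe sets of the set to do so. How often the dimmer probe sets of all genes did so was not counted. Its mean intensity of 383 lay below the brightness filter, and the brighter Acsl1 probe set gave -0.03.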

How the results depend on the processing

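No paired analysis was possible because only 1 array was made per group. Since the deposited values had been equalised beforehand, leaving out the scaling or applying quantile normalization says little about stability. Means included, the fatty acid synthesis median stayed between 0.031 and 0.067 and the synthetase median between -0.123 and -0.062 over all settings tried. The -0.123 came with the filter at the 75th percentile, which left 1 synthetase, Acsl4, so it is not a median of several genes. The sterol synthesis median of 0.002 became 0.042 as a mean and -0.04 when the filter was raised to the 75th percentile, leaving 7 genes. The beta-oxidation median of 0.058 became 0.114 with no brightness filter, which added the dim genes Cpt2 and Acadvl, and 0.022 at the 75th percentile, with 6 genes left. The count of lipid genes past the threshold, 0 at 2-fold, was 0 at 1.5-fold and 2 at 1.2-fold. Over all measured genes the count of 1 became 8 at 1.5-fold, 392 at 1.2-fold, 2 with a floor at the 40th percentile, 9 with no filter and 0 with a filter at the 75th percentile. Of 285 single-gene values under the alternatives, 277 moved by less than the local spread and 8, of 5 genes, by more, all when probe sets were averaged. The other floors and filters left each single-gene value as it was, and averaging cannot alter a gene read by 1 probe set. The 277 therefore say little about stability. A sign other than in the report was given by 9 of the 285 values, of 5 genes. Averaging took Idi1 to -0.18, Sc5d to 0.13 and Fasn to 0.01, with or without probe sets below the filter. Acsl1 came to 0.33 and Acaca to -0.18 only when their dim probe sets were included, and stayed at -0.03 each over measured ones. Subtracting the median ratio at like brightness, an alternative chosen after seeing the data, left the 4 role medians between -0.064 and 0.066.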

Other observations

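Among genes of the neighbouring lists that lay below the brightness filter, Acadsb, a dehydrogenase of branched short-chain acyl-CoA, read 204 in GLUT1 and 367 in empty virus, the widest gap in log2 ratio of any gene on these lists. It was chosen after its value was seen. Ppargc1a, a coactivator of mitochondrial genes, and Cd36, a fatty acid translocase, lay under the floor on both arrays, with Cd36 at 30 in GLUT1 and 39 in empty virus.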
